A study of Sus scrofa with 6 samples.

Results

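The enzymes considered here are those that organophosphates inhibit and those that break organophosphates down: acetylcholinesterase (ACHE), butyrylcholinesterase (BCHE), the carboxylesterases CES1, CES2 and CES3, and the paraoxonases PON1, PON2 and PON3. The rule takes them by gene symbol, and the set was drawn up with earlier results of these data known. Of these 8 genes, 5 (ACHE, CES3, PON1, PON2 and PON3) could be matched by symbol to 1 of the 25880 gene identifiers of the count tables, of which 14857 carry a symbol. BCHE, CES1 and CES2 were matched to no identifier and were not analysed here.

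The data were RNA-seq libraries of pig (Sus scrofa) oocytes at the MII stage, the metaphase arrest in which the egg waits for fertilization. Ovaries came from a slaughterhouse, and oocytes inside their cumulus cells were collected from antral follicles for maturation in vitro. The 3 control libraries came from oocytes matured without malathion, and the 3 malathion libraries from oocytes matured with 1 mM malathion, added from a 0.75 M stock in DMSO. No strain, age or genotype is given, nor whether the control medium held DMSO, how many oocytes made a library, or whether replicates were separate cultures, so p-values measure only the spread between these libraries, which may be technical.

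Malathion is a pro-toxicant. Cytochrome P450 enzymes oxidise it to malaoxon, which binds the active-site serine of acetylcholinesterase and stops the breakdown of the transmitter acetylcholine. Carboxylesterases compete with that step by cutting the carboxylic ester groups of malathion, and they and butyrylcholinesterase also bind the oxidised form. Paraoxonases are calcium-dependent hydrolases of another fold: PON1 and PON3 are made mainly in liver and carried on high-density lipoprotein, while PON2 stays inside the cells of many tissues and is known mostly as a lactonase with antioxidant effects.

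Gene counts summed to between 25816040 and 42312341 per library, and values are given as CPM, the count divided by that sum on the usual per-million scale. Both replicate 3 libraries stood apart, with 8344 (control) and 8492 (malathion) genes at 1 count or more against 12211 to 14707 in the other 4, and control replicate 2 held the most genes. The 12 oocyte markers that could be matched summed to 30741 to 84220 CPM in those 4 libraries and to 4667 CPM (control) and 2968 CPM (malathion) in the replicate 3 libraries. Across the 6 libraries GDF9 lay between 27.5 and 2650 CPM, BMP15 between 21.8 and 5810, ZP3 between 1.35 and 998 and BTG4 between 521 and 44538, each lowest in a replicate 3 library. Other markers went the opposite way there: ZP2 was highest in malathion replicate 3 (2158 CPM) and OOEP in control replicate 3 (382 CPM), both named after their values were seen. The 13 cumulus cell markers matched summed to 36.1 to 727 CPM, with 2 of them at 0 in all libraries. Because a library total is shared by all transcripts, fewer cells of a type and less RNA per cell cannot be told apart.

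Each esterase was classed as absent (0 counts in all 6 libraries), expressed (at least 1 CPM in at least 3 libraries) or low (anything between). PON2 was the only 1 of the 5 classed as expressed, and ACHE, CES3, PON1 and PON3 were low, at no more than 0.959 CPM in any library. None was absent. In the whole table, 35.5% of genes were expressed, 29.6% low and 34.9% absent by the same definition. At a bar of 5 CPM, PON2 would also be low, since it passed that level in 1 library.

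**Figure D1:**
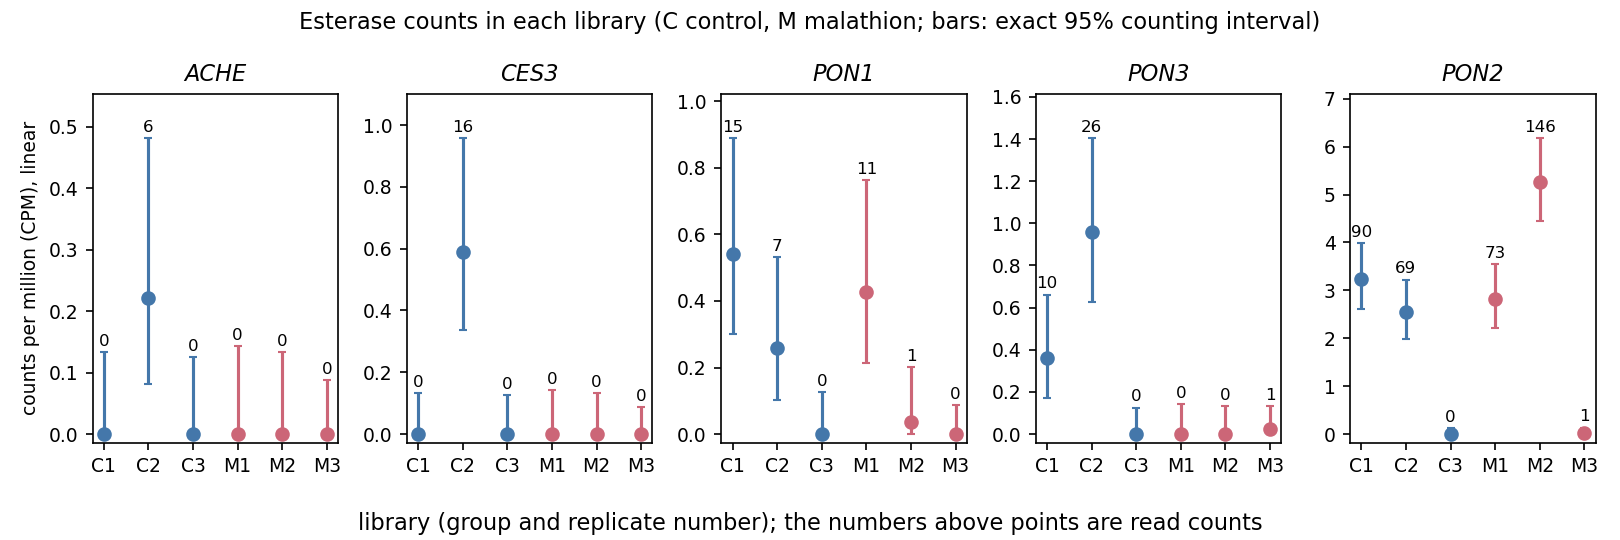
CPM (vertical, linear, a separate scale for each gene) of the 5 matched esterases in control (blue, C) and malathion (red, M) libraries by replicate number, with exact 95% counting intervals and the read count above each point. ACHE and CES3 have counts in control replicate 2 alone, and PON2 is near 0 in both replicate 3 libraries.

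ACHE (ENSSSCG00000030303), the enzyme that clears acetylcholine from synapses and the classical target of organophosphates, was nearly undetected. Control replicates 1, 2 and 3 held 0, 6 and 0 reads of it, and each malathion library held 0. The reads of control replicate 2 amount to 0.221 CPM (exact 95% interval 0.0812 to 0.482). A count of 0 in the other libraries allows up to 3 counts, or 0.0709 to 0.116 CPM; the plotted two-sided intervals reach a little higher, 0.0872 to 0.143 CPM. Such intervals and limits cover counting error only, because the PCR copies counted are not independent molecules. Without control replicate 2 both groups are at 0, so no fold change is given.

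The carboxylesterase CES3 (ENSSSCG00000024476), a member of the family that detoxifies malathion, showed the same layout. Control replicates 1, 2 and 3 held 0, 16 and 0 reads, and each malathion library 0. The level in control replicate 2 was 0.590 CPM (0.337 to 0.959), below 1 CPM. Both groups are again at 0 without that library. Genes seen in a single library were common at such totals. Of the 1564 genes with between 6 and 16 reads over all 6 libraries, 41.7% were found in a single library, and 26.1% in control replicate 2 alone. Neither gene entered the test of malathion against control, because both were under the filter on low counts, which asks for about 10 reads in at least 3 libraries.

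PON1 (ENSSSCG00000015332), the serum paraoxonase that hydrolyses the oxidised forms of several organophosphates, was present at a trace. Control replicates 1, 2 and 3 had 15, 7 and 0 reads (0.540, 0.258 and 0 CPM). Malathion replicates 1, 2 and 3 had 11, 1 and 0 reads (0.426, 0.0360 and 0 CPM). The groups overlapped, with 1 library at 0 in each, and the highest control and highest malathion library lay within each other's 95% counting interval (0.302 to 0.890 and 0.213 to 0.762 CPM). The mean was 0.266 ± 0.270 CPM in control and 0.154 ± 0.236 CPM in malathion libraries (SD, n = 3 each). PON1 also fell under the filter and has no test.

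PON3 (ENSSSCG00000029515), a lactonase of the same family with little action on organophosphates, was seen almost only in control libraries. It had 10, 26 and 0 reads in control replicates 1, 2 and 3, or 0.360, 0.959 and 0 CPM. Malathion replicates 1, 2 and 3 had 0, 0 and 1 reads, the last at 0.0236 CPM. The groups overlapped through control replicate 3, which had 0 reads. The lower bound of control replicate 1 (0.173 CPM) lay above the upper bounds of malathion replicates 1 and 2 in the same two-sided interval (0.143 and 0.133 CPM).

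Pooled by group, PON3 had 36 control and 1 malathion reads, a ratio of control to malathion of 40.9 with a counting interval of 6.89 to 1661. The ratio was 16.7 (2.38 to 727) without control replicate 2 and 62.9 (10.6 to 2552) without control replicate 3. These intervals leave out the spread between libraries, and the ratio depends on the scaling. In TMM-normalised CPM, the scale of the tests, PON3 stood at 0.151, 0.267 and 0 in control and at 0, 0 and 0.171 in malathion replicates 1, 2 and 3, so malathion replicate 3 was above control replicate 1. PON3 was under the filter, and in the fit without a filter, edgeR's quasi-likelihood test gave a log2 fold change of −2.42 ± 2.80 (SE) and an adjusted p of 1.00 (unadjusted 0.386). This layout, at least 10 reads in control replicates 1 and 2 and at most 1 in each malathion library, was defined after the counts of PON3 were seen. It held for 51 genes, 0.303% of the 16852 with any read, and its mirror image for 5 genes (0.0297%).

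PON2 (ENSSSCG00000015331), the intracellular paraoxonase, carried most of the esterase reads. Control replicates 1, 2 and 3 had 90, 69 and 0 reads of it, which is 3.24, 2.55 and 0 CPM. Malathion replicates 1, 2 and 3 had 73, 146 and 1 reads, which is 2.83, 5.26 and 0.0236 CPM. Malathion replicate 2 was the highest library, both replicate 3 libraries were at or near 0, and the groups overlapped. The mean was 1.93 ± 1.71 CPM in control and 2.70 ± 2.62 CPM in malathion libraries (SD, n = 3 each). Malathion replicate 1 lay between control replicates 1 and 2. The exact 95% counting interval of malathion replicate 2, 4.44 to 6.18 CPM, lay above those of the other 5 libraries, the next of which reached 3.98 CPM.

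Within its library PON2 was a gene of middling level. It exceeded 47.8% and 35.3% of the genes detected in control replicates 1 and 2, and 39.0% and 50.1% of those in malathion replicates 1 and 2. Its near absence from the replicate 3 libraries was shared by some, not most, of the genes of its level. Of the 70 genes that stayed between 2.55 and 5.26 CPM in the other 4 libraries, 27 (38.6%) had at most 1 count in each replicate 3 library. These bounds are the lowest and highest values of PON2 itself, so PON2 is among the 70 and the 27.

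The question put to the libraries was how malathion affects mRNA kept in the oocyte. PON2 was the only esterase to enter the test. Its log2 fold change, malathion minus control, was 0.66 ± 1.53 (SE), with a 95% interval of −2.62 to 3.93 and an adjusted p of 0.9998 by edgeR's quasi-likelihood test with Benjamini-Hochberg adjustment over 10678 genes. PON2 did not pass, and the interval spans changes in either direction. In the background, 0% of the 10678 genes tested were called. Unadjusted p under 0.05 was found for 383 genes, and DESeq2, which gave an adjusted p for 9559 genes, called 0 with 227 under that level. CPM of the groups did not overlap for 0.749% of genes, and PON2 was not among them.

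The size of the fitted PON2 value depended on single libraries while its sign did not in the fits made. It was 1.53 without control replicate 1, 0.19 without control replicate 3, 0.03 without malathion replicate 2 and 1.12 without malathion replicate 3. Without both replicate 3 libraries it was 0.64 ± 0.77 (−1.22 to 2.496), and without control replicate 2 as well it was 0.24 ± 0.67 (−1.23 to 1.71). The adjusted p stayed between 0.9909 and 1 in all 13 other fits. Reads pooled by group did change direction: the ratio of control to malathion was 0.822 over all libraries, 1.26 without control replicate 3 and 1.74 without malathion replicate 2.

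**Figure D2:**
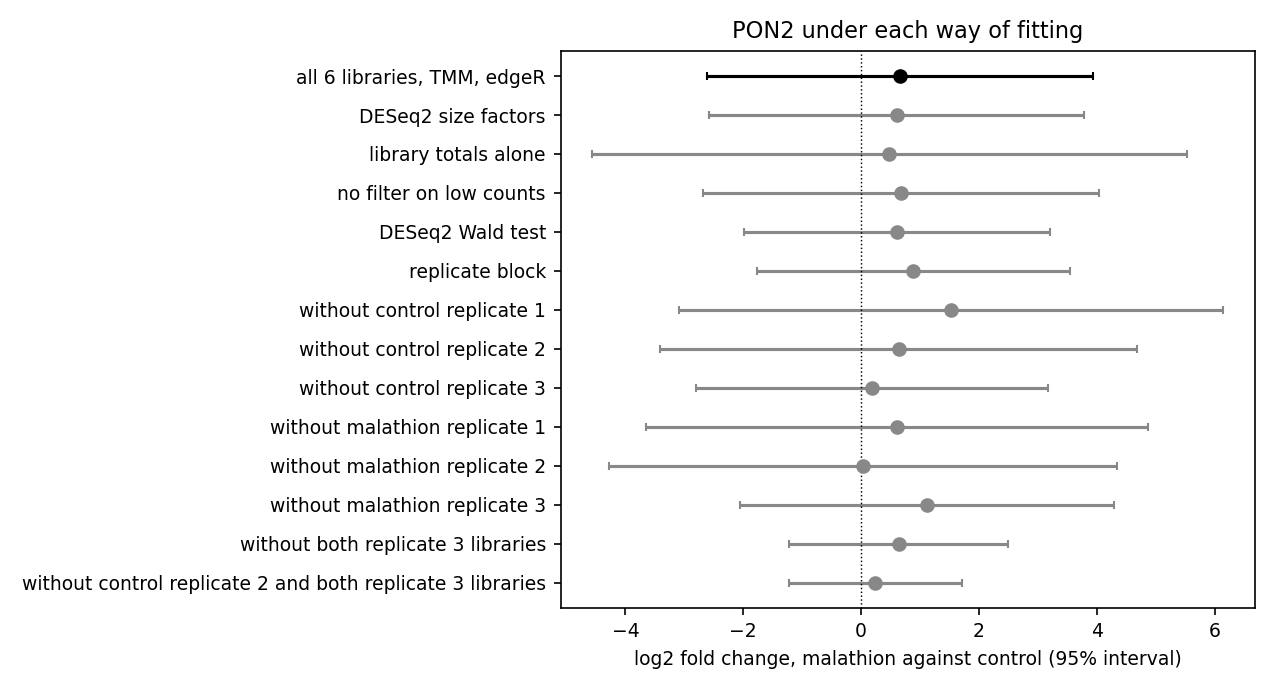
Log2 fold change of PON2, malathion against control (horizontal), with its 95% interval, for the fit over all 6 libraries (black) and 13 other fits (grey). Each point is above 0 and each interval includes 0.

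Likeness of profile was measured as the root mean square difference of log2(CPM + 1) over the 6 libraries after subtracting each gene's mean. Among 4725 genes that had a symbol and averaged 10 CPM or more, the nearest to PON2 were GBE1 (ENSSSCG00000012000), the glycogen branching enzyme, at 0.137, ELMOD2 (ENSSSCG00000009055) at 0.138, and MMAA (ENSSSCG00000009039), a mitochondrial gene of vitamin B12 metabolism, at 0.171. GBE1 stood at 29.3, 21.5 and 5.87 CPM in control libraries 1, 2 and 3 and at 24.3, 32.4 and 5.98 CPM in malathion libraries 1, 2 and 3. All 3 were highest in malathion replicate 2 and lowest in a replicate 3 library. PON2 has the lowest CPM of the 4, so the added 1 CPM shrinks its differences more than theirs.

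**Figure D3:**
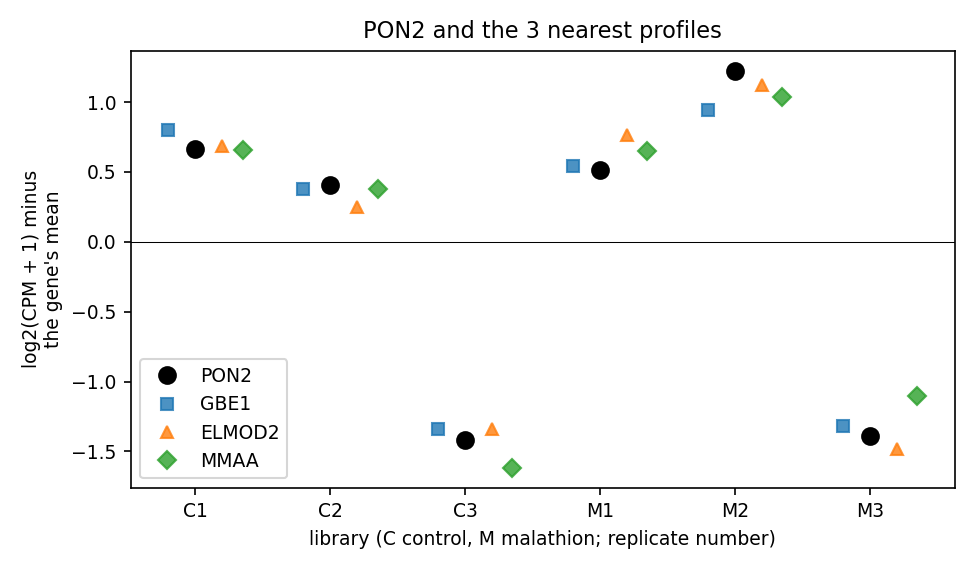
Log2(CPM + 1) minus the gene's own mean (vertical) in each control (C) and malathion (M) library for PON2 (black circles) and the 3 genes nearest to it. All 4 genes lie below 0 in both replicate 3 libraries and above 0 in the other 4.

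The paraoxonase genes are neighbours. In the RefSeq annotation of Sscrofa11.1, used here only for gene order, PON3 lies between PON1 and PON2 with no other protein-coding gene between them. Their levels differed within a library all the same. In malathion replicate 2, PON2 had 146 reads, PON1 had 1 and PON3 had 0. In control replicate 2 the order was PON2, PON3, PON1, with 69, 26 and 7 reads, and in malathion replicate 1 it was PON2, PON1, PON3, with 73, 11 and 0. These are read counts not scaled by transcript length, so they do not rank transcripts by abundance. Reads that fit more than 1 place, 2.45% to 8.37% of a file, are in no gene's count, which can lower genes with close copies.

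Markers of other sources, summed by list, were above the traces outside the replicate 3 libraries and differed between libraries. Liver makes PON1, PON3 and carboxylesterases, and 6 genes of liver and plasma proteins together reached 6.33, 8.82 and 0.170 CPM in the control libraries (replicates 1, 2 and 3). In the malathion libraries they reached 8.02, 5.94 and 0.0236 CPM. Albumin (ALB) gave most of this outside the replicate 3 libraries, while SERPINA1 was at 0 in each library. In control replicate 2, the only library with ACHE and CES3 reads, cumulus markers added up to 425 CPM. The sum was 653 to 727 CPM in control replicate 1 and the malathion libraries of replicates 1 and 2. VCAN (14.1 to 424 CPM over the 6 libraries) and KITLG (15.8 to 244 CPM) made up most of it. CYP11A1 ranged from 0.0236 to 81.6 CPM and was at 0.590 CPM in control replicate 2, while the granulosa cell genes AMH and AMHR2 were at 0 throughout. Markers of theca, stroma, blood and endothelium reached at most 22.2 CPM, in malathion replicate 2, and 20.8 CPM in control replicate 2. Their part in the esterase counts was not tested.

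Cholinergic signalling surrounds ACHE, so its genes were listed: the acetylcholine-making enzyme CHAT, its transporters, the ACHE anchors PRIMA1 and COLQ, and the receptors. Of 29 genes, 23 were matched, 4 were expressed, 8 low and 11 absent. The anchors, the choline transporter SLC5A7 and the vesicular transporter SLC18A3 had 0 reads in all libraries, and CHAT had 4 reads in all, each in control replicate 3. The highest means belonged to subunits of nicotinic receptors, the ion channels opened by acetylcholine. CHRNA1 (ENSSSCG00000015969) stood at 16.6, 21.8 and 0.0339 CPM in control libraries 1, 2 and 3 and 13.3, 19.6 and 2.06 CPM in malathion libraries 1, 2 and 3.

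CHRNE (ENSSSCG00000017909) stood at 3.31, 37.1 and 0 CPM in control libraries 1, 2 and 3 and 3.37, 6.45 and 0.0236 CPM in malathion libraries 1, 2 and 3. For CHRNA3 (ENSSSCG00000001752) the values were 8.20, 16.5 and 1.39 CPM in control libraries 1, 2 and 3 and 5.38, 11.0 and 0.520 CPM in malathion libraries 1, 2 and 3. All 3 subunits were highest in control replicate 2. Of 6 genes of the list tested, 2 had a higher and 4 a lower fitted value after malathion, and 0 were called. The median log2 fold change was −0.22, against −0.08 over all genes tested, and it was 0.35 without control replicate 2. With library totals alone, all 6 were lower, and the median of all genes moved to −0.33.

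Other serine hydrolases, the enzyme class whose active-site serine organophosphates can modify, were listed beside the cholinesterases and carboxylesterases. Of 32 genes, 31 were matched, 18 were expressed, 9 low and 4 absent. PNPLA6, the neuropathy target esterase, known for its part in delayed organophosphate neuropathy, was among those at 0 reads in each library. FAAH, which breaks down endocannabinoids, had 17 reads, all in control replicate 2. The carboxylesterase relative CES5A had 4 reads, all in control replicate 1.

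The highest mean CPM of the list belonged to PAFAH1B2 (ENSSSCG00000024027), a catalytic subunit of a brain-type platelet-activating factor acetylhydrolase. It stood at 156, 287 and 55.4 CPM in control libraries 1, 2 and 3 and at 151, 193 and 294 CPM in malathion libraries 1, 2 and 3, and unlike PON2 it was retained in both replicate 3 libraries. Its log2 fold change was 2.07 ± 1.76, −1.34 without malathion replicate 3 and −0.06 without both replicate 3 libraries. PPME1 (ENSSSCG00000020856), the methylesterase of protein phosphatase 2A, stood at 155, 312 and 7.74 CPM in control libraries 1, 2 and 3 and at 179, 238 and 9.50 CPM in malathion libraries 1, 2 and 3. PREPL (ENSSSCG00000008448), a prolyl endopeptidase-like hydrolase, stood at 132, 80.2 and 2.78 CPM in control and at 146, 140 and 8.13 CPM in malathion libraries. For both, the replicate 3 libraries were the lowest of each group and the groups overlapped. Of 21 genes tested 11 had higher and 10 lower fitted values, with a median of 0.19 and 0 called. That median was −0.16 with library totals alone, and −0.02, −0.14 and −0.04 without malathion replicates 1, 2 and 3 in turn. The median of all genes was lower than the list's in each of these fits, at −0.33, −0.23, −0.25 and −0.09.

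Other proteins reported to bind or cleave organophosphates were PEPD, PTER, RGN and ALB, of which 2 were expressed and 2 low. Prolidase (PEPD, ENSSSCG00000002868), a dipeptidase with activity on some organophosphates, stood at 76.6, 50.5 and 0.0679 CPM in control libraries 1, 2 and 3 and at 75.7, 80.7 and 0.331 CPM in malathion libraries 1, 2 and 3. ALB (ENSSSCG00000008948), the plasma protein whose surface is modified by organophosphates, stood at 4.68, 7.71 and 0 CPM in control and at 7.13, 4.50 and 0.0236 CPM in malathion libraries. PTER had 2 reads in all, in control replicate 2, and regucalcin (RGN) 1 read, in control replicate 3. PEPD and ALB had log2 fold changes of 0.50 ± 1.24 and 0.26 ± 1.54 and did not pass; with library totals alone ALB was at −0.09.

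**Figure D4:**
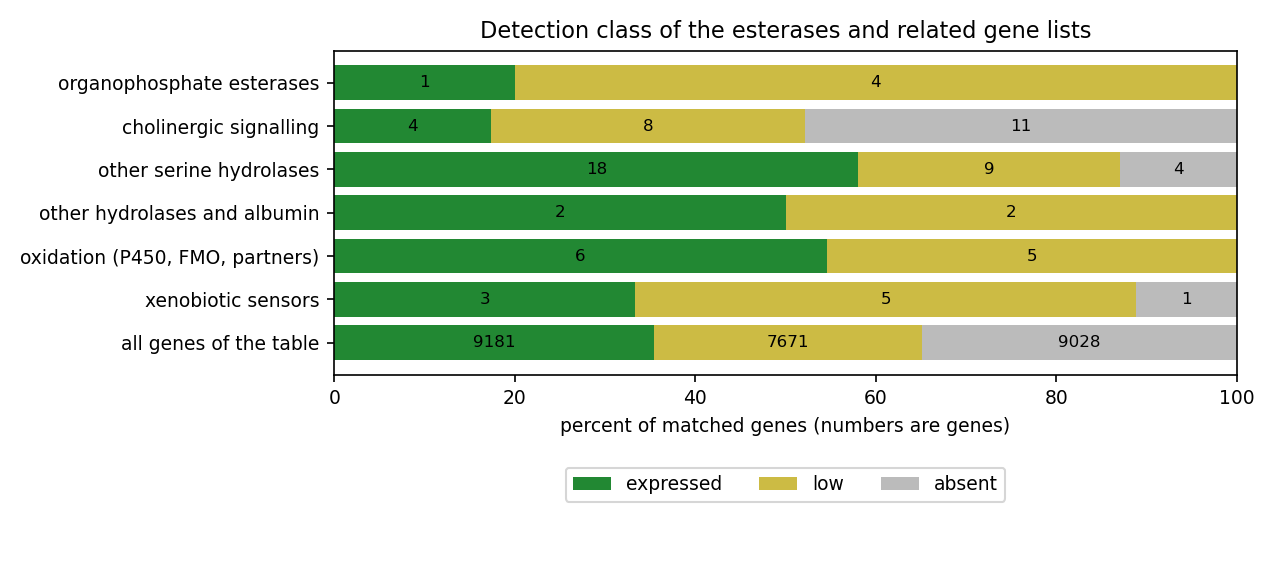
Share of matched genes classed as expressed, low or absent (horizontal, percent, with the number of genes in each part) for the esterases, 5 related lists and the whole table. Among the esterases 1 of 5 is expressed, and among other serine hydrolases 18 of 31.

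Oxidation turns malathion into malaoxon, and its genes were listed as P450 enzymes, flavin monooxygenases and their electron partners. Of 20, 11 were matched, 6 were expressed and 5 low. Those not matched were all P450 enzymes, of the CYP2B, CYP2C, CYP2D and CYP3A groups, and have no values under the listed symbols. The P450 enzymes of the list that entered the test were CYP1A1, CYP1A2 and CYP1B1, so the list does not cover the unmatched ones. The leading gene was CYB5A (ENSSSCG00000004875), the electron carrier cytochrome b5, at 575, 362 and 2.95 CPM in control libraries 1, 2 and 3 and 537, 657 and 18.1 CPM in malathion libraries 1, 2 and 3. POR (ENSSSCG00000038320), the reductase that feeds electrons to P450 enzymes, stood at 3.99, 2.77 and 0 CPM in control and 3.68, 4.32 and 0.189 CPM in malathion libraries. FMO5 (ENSSSCG00000006702), a flavin monooxygenase, stood at 4.14, 8.78 and 0 CPM in control and 7.01, 6.16 and 0.827 CPM in malathion libraries. The 3 genes were lowest in control replicate 3, and the groups overlapped for each.

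The 6 genes of oxidation that were tested had fitted values above 0, and 0 were called. Their median log2 fold change was 0.80, and 0.32 with library totals alone. Leaving out control replicate 3 brought it to 0.26, and leaving out control replicate 1 to 1.79. Without control replicate 2 and both replicate 3 libraries it was −0.15, with 3 of 8 tested genes above 0. In these fits the median of all genes was −0.19, −0.03 and 0.02 in turn. With no filter on low counts the oxidation median was 0.09 (6 genes above 0 and 5 below), and 1.40 in the fit with a replicate block (5 and 1). CYP1A2 had 1.45 ± 1.56 (unadjusted p = 0.366, adjusted p = 0.9998, edgeR) and CYP1A1, an aryl hydrocarbon-induced P450, 0.08 ± 1.55; these 2 were named after their values were seen. A look beyond the list, also made after seeing the data, took all 11 genes with symbols of P450 families 1 to 3. None of them was of family 3. Of 5 tested, 4 had higher and 1 a lower fitted value, and 0 were called. CYP1A1, CYP1A2 and CYP1B1 were already counted in the oxidation list. The look thus added only CYP2R1 (log2 fold change 0.47 ± 1.45) and CYP2D6 to the genes tested. The lower one was CYP2D6 (ENSSSCG00000000046), a drug-metabolising P450, with 22, 217 and 1 reads in control and 10, 4 and 0 reads in malathion replicates 1, 2 and 3 (log2 fold change −3.39 ± 1.65, unadjusted p = 0.0586, adjusted p = 0.9998, edgeR).

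Xenobiotic sensors, the transcription factors that switch on such enzymes, were led by NFE2L2 (ENSSSCG00000015987), the regulator of antioxidant genes. It stood at 254, 92.5 and 12.9 CPM in control libraries 1, 2 and 3 and at 246, 271 and 4.77 CPM in malathion libraries 1, 2 and 3. AHR (ENSSSCG00000030484), the receptor that drives CYP1 genes, stood at 7.81, 8.23 and 0 CPM in control and at 12.0, 12.0 and 1.94 CPM in malathion libraries. For AHR the groups overlapped through malathion replicate 3. Its log2 fold change was 2.04 ± 1.35 (adjusted p = 0.9998, edgeR), and 0.69 with library totals alone. ARNT (ENSSSCG00000006646), the partner of AHR, stood at 3.71, 2.80 and 0.339 CPM in control and at 2.83, 4.83 and 0.898 CPM in malathion libraries. Of the 9 sensors 3 were expressed, 5 low and 1 absent. Among 4 tested, 3 had higher and 1 lower fitted values and 0 were called, with a median of 0.57. With no filter 4 were higher and 4 lower. The lower gene of the 4 was HNF4A, a liver transcription factor, with 74, 45 and 0 reads in control and 1, 14 and 0 in malathion replicates 1, 2 and 3 (log2 fold change −2.71 ± 1.65, adjusted p = 0.9998, edgeR). NR1I2, the pregnane X receptor, was under the filter, with 29, 68 and 4 reads in control and 0, 1 and 0 in malathion libraries. Like PON3, it had at least 10 reads in control replicates 1 and 2 and at most 1 in each malathion library. So did the flavin monooxygenase FMO1 of the oxidation list, with 28, 39 and 0 reads in control and 0 in each malathion library. That layout held for 51 genes, 0.303% of the 16852 with any read, and its mirror image for 5 genes (0.0297%). HNF4A, NR1I2 and FMO1 were named after their values were seen. The median of the sensors was −0.13 without malathion replicate 1, −0.06 without malathion replicate 2 and 0.005 without malathion replicate 3. In these fits the median of all genes was −0.23, −0.25 and −0.09 in turn. Without control replicate 2 the sensors were at 0.199 and all genes at 0.220.

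**Figure D5:**
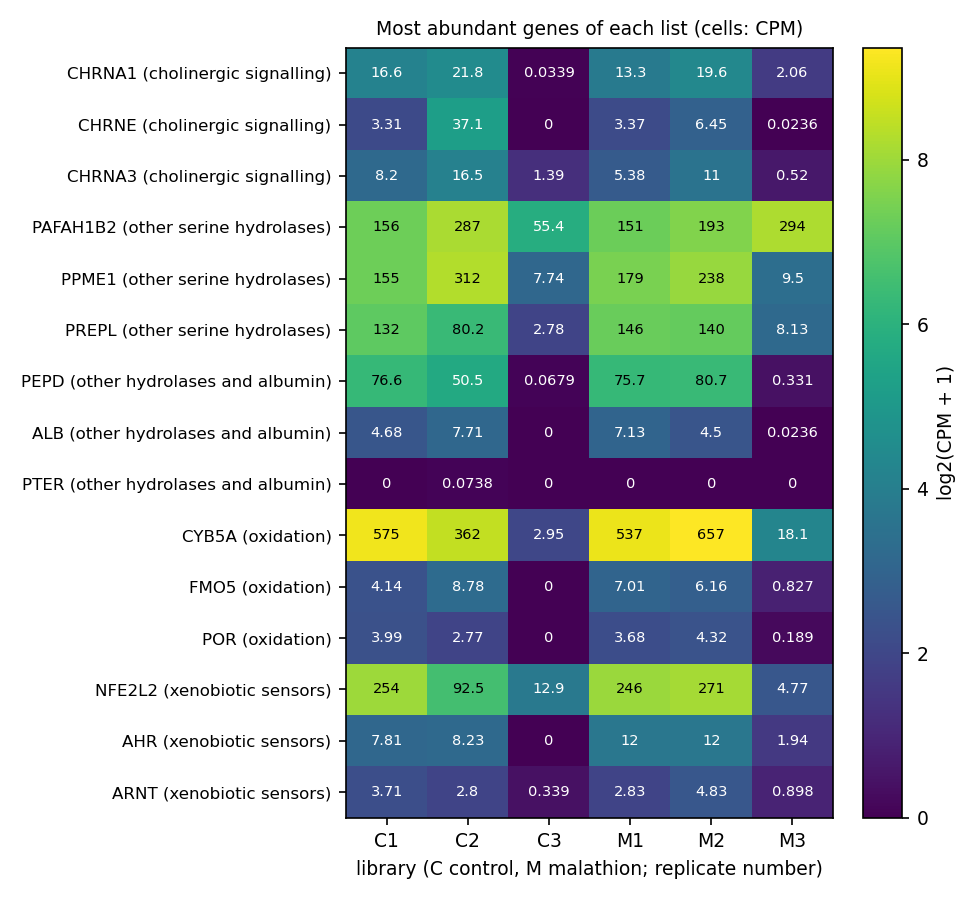
The 3 genes with the highest mean CPM of each related list (rows) in the control (C) and malathion (M) libraries (columns), coloured by log2(CPM + 1), with the CPM printed in each cell. CYB5A, PAFAH1B2, PPME1 and NFE2L2 lead, and most rows are darkest in the replicate 3 columns.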

How the data were processed

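Members and gene lists were chosen with earlier results of these data known. Polyadenylated RNA was copied by a modified Smart-seq2 method, per the labels' protocols. The authors deposited raw read counts per gene; STAR 2.5.3a, HTSeq 0.9.1 and DESeq2 1.20.0 are named in the submitters' processing notes, with no role stated. Genome build, annotation and strandedness are not given in the sources used here. The 5 rows of reads given to no gene (36.7% to 42.6% of a file) were left out of totals and tests. Symbols came from a gene name table (14857 of 25880 identifiers).

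Malathion and control (3 libraries each) were compared by the quasi-likelihood test of edgeR 4.0.16 (limma 3.58.1, R 4.3.3), with TMM factors, filterByExpr (minimum count 10, minimum total 15), two-sided, Benjamini-Hochberg threshold 0.05. DESeq2 1.42.0 was an alternative. The procedure was run on simulated counts with a smaller spread between replicates than these libraries show, so how well it finds changes here was not tested. Fold changes rest on TMM factors of 0.138 to 3.59, so they do not follow from CPM. Single-library intervals are exact Clopper-Pearson at 95%. No 2 libraries agreed within sampling noise. Labels give both groups replicate numbers without saying what they mark; after subtracting group means, libraries of the same number correlated at r = 0.466, 0.467 and 0.573 across genes, against 0.457 (control 1 with malathion 2) and 0.374 (control 2 with malathion 1), so replicates 1 and 2 are hardly told apart. The main test did not pair the libraries, and a fit with the replicate number as a block was an alternative.

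The genes named were the esterases, the 3 with the highest mean CPM of each list (and any called), and the 3 profiles nearest to an expressed esterase, beside 4 oocyte markers. Genes at 0 or a few reads, ZP2, OOEP, cumulus genes, HNF4A, NR1I2, FMO1 and P450 genes other than by this rule were named after their values were seen. Esterase sequences were not used here.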

Additional observations from a re-analysis of the deposited data

How the results depend on the processing

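Of the 5 matched esterases, 4 were under the filter on low counts, so the main test says nothing of ACHE, CES3, PON1 and PON3. Whether low expression, depth or library complexity kept their counts low was not tested. The fitted value of PON2 kept its direction and did not pass in any of the 13 other fits, while reads pooled by group turned without control replicate 3 or malathion replicate 2. With the replicate number as a block its log2 fold change was 0.89, and the block changed no call. Leaving out 1 library gave 0.03 to 1.53. The number of genes called, 0 in the main comparison, was 60 with no filter on low counts and 0 to 3 when 1 library was left out; 3 passed without malathion replicate 1 and 3 without malathion replicate 2. None of the 5 esterases was among the 60 (adjusted p from 0.780 to 1.00, edgeR). The number of expressed esterases was 0 at a bar of 5 CPM and 1 in the other 10 settings, of which a bar of 1 CPM in a single library was chosen after seeing the data.

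List medians are descriptions with no test. With no filter on low counts they were −1.30 for cholinergic genes, −0.11 for other serine hydrolases and −1.01 for the other hydrolases. In that fit they were 0.09 for oxidation genes and −1.28 for xenobiotic sensors. That fit held more genes with few reads, and the median of all its genes was −0.28. For other serine hydrolases the median was 0.086 with DESeq2 size factors, 0.088 with DESeq2, −0.16 with library totals alone, and −0.14 to 0.52 when 1 library was left out. For oxidation genes, leaving out 1 library gave 0.26 to 1.79, and leaving out control replicate 2 and both replicate 3 libraries −0.15. For xenobiotic sensors, leaving out 1 library gave −0.13 to 0.75. The cause of these shifts was not tested.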
